A study of Mus musculus with 16 samples.

Results

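The 10 genes Mtor, Rptor, Tsc1, Ddit4, Sesn1, Sesn2, Flcn, Rragd, Tfeb and Tfe3 encode the core of the growth-controlling kinase complex mTORC1, proteins that restrain it or bring it to the lysosome, and a pair of transcription factors that it holds back. They were taken as the rows of the deposited count table whose Ensembl identifiers map to these symbols, and are 10 of its 53801 genes. All 10 passed the filter on low counts, which left 13774 genes to test, but Rragd passed it only through its counts at 2% oxygen. In the GENCODE vM21 annotation of the GRCm38 build, all 10 are protein-coding and counts cover their exons. On the plus strand are Mtor (ENSMUSG00000028991, chr4:148448611-148557683), Rptor (ENSMUSG00000025583, chr11:119602905-119899576), Tsc1 (ENSMUSG00000026812, chr2:28641228-28691167), Sesn1 (ENSMUSG00000038332, chr10:41809935-41908424), Rragd (ENSMUSG00000028278, chr4:32983037-33022180), Tfeb (ENSMUSG00000023990, chr17:47737030-47792419) and Tfe3 (ENSMUSG00000000134, chrX:7762560-7775202). On the minus strand are Ddit4 (ENSMUSG00000020108, chr10:59949669-59951834), Sesn2 (ENSMUSG00000028893, chr4:132492032-132510501) and Flcn (ENSMUSG00000032633, chr11:59791408-59810016).

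Polyadenylated RNA was sequenced from mouse MLL-AF9 acute myeloid leukemia (AML) cells, a line transformed by a fusion of the MLL gene, kept in RPMI medium with FBS and the growth factors IL-3 and SCF. MCT4, the exporter of lactate and protons encoded by Slc16a3, was targeted with CRISPR-Cas9 (MCT4-KO), and control cells received non-targeting gRNA in its place. Cas9 was induced with 4-OHT (4-hydroxytamoxifen) in every group, controls included, after which cells were held at 20% or 2% oxygen. The 4 groups (control at 20% oxygen, MCT4-KO at 20% oxygen, control at 2% oxygen and MCT4-KO at 2% oxygen) had 4 libraries each, 16 in all. The sources used here do not give the position or number of the guides, whether the cells were a clone or a pool, or how long they were cultured. Nothing in the labels says that replicates came from separate cultures, and the p-values therefore rest on the spread among libraries alone, which may be technical.

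As background, mTORC1 joins the kinase mTOR (Mtor) to the scaffold raptor (Rptor) and promotes protein synthesis when growth factors and amino acids are plentiful. Growth factor signals act through the TSC complex, whose scaffold is hamartin (Tsc1) and which turns off the GTPase Rheb, while amino acids act through Rag GTPases on the lysosome, of which RagD (Rragd) is one and which folliculin (Flcn) regulates. Redd1 (Ddit4) and the sestrins (Sesn1, Sesn2) restrain the complex under stress, and active mTORC1 keeps TFEB and TFE3, factors that turn on genes for lysosomes and autophagy, out of the nucleus.

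Libraries held 21192179 to 28871459 estimated counts. Levels are given as CPM (counts relative to the TMM-scaled library size). Changes are on the log2 scale with ± SE, tested by edgeR's quasi-likelihood method, and the words rose and fell are kept for genes with a Benjamini-Hochberg adjusted p under 0.05 across the 13774 genes. The targeted gene Slc16a3 stood at 209.9 ± 23.0 CPM (SD, n = 4) in the control group at 20% oxygen, against 79.9 ± 11.1 CPM after knockout, and at 812 ± 23.4 against 365 ± 5.83 CPM at 2% oxygen. Control replicate 4 at 2% oxygen stood apart from the other 3 libraries of its group (chi-square per gene of 8.33 to 12.4, against 2.52 to 3.31 among the other 3), and results that turn on it are given with and without it. Libraries at 20% oxygen were uneven too. Control values there ran from 3.47 (replicates 1 and 2) to 8.95 (replicates 1 and 3). Those of MCT4-KO ran from 2.47 (replicates 3 and 4) to 7.48 (replicates 1 and 3). Mitochondrially encoded genes took 0.750% ± 0.179 (control) and 0.720% ± 0.0671 (MCT4-KO) of counts at 20% oxygen and 0.298% ± 0.0442 and 0.379% ± 0.0358 at 2% oxygen. Of 14 myeloid markers 13 averaged at least 1 CPM, and their summed level was 3443 to 3953 CPM over the libraries at 20% oxygen and 7094 to 7709 CPM at 2% oxygen. Most of that sum at 2% came from Elane (693 CPM in control cells at 20% and 3794 CPM at 2% oxygen) and Prtn3 (406 and 1288 CPM), while 6 of the 14 were called higher and 8 lower in control cells (median log2 change -0.13). Markers of mast cells and basophils summed to 9.56 to 14.3 CPM at 20% and 45.6 to 66.7 CPM at 2% oxygen, with 2 of 6 at 1 CPM or more and Tpsb2, Cma1 and Fcer1a at 0 in every library. In control cells Mcpt8 alone was at 9.01 and 61.9 CPM, and Ms4a2 was lower at 2% (3.44 and 1.35 CPM). Megakaryocyte markers summed to 1.15 to 2.62 and 10.2 to 15.2 CPM, with 2 of 6 at 1 CPM or more. Erythroid markers summed to at most 4.95 CPM, and those of B cells, of T and NK cells and of fibroblasts to under 1 CPM in every library. The part of these shifts in the results below was not tested, and in bulk RNA a change in the make-up of the cells and a change in RNA per cell cannot be told apart.

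Per unit of transcript length, Ddit4 and Sesn2 were the most abundant of the 10 messages in every group and Rragd the least. In control cells at 20% oxygen Ddit4 and Sesn2 stood level at 124 ± 8.60 and 124 ± 4.72 TPM (transcript abundance per unit of length, ± SD, n = 4), with overlapping ranges. Flcn followed at 38.1 ± 0.486 TPM, then Rptor at 17.3 ± 0.576, Mtor at 16.3 ± 2.28 and Sesn1 at 16.2 ± 0.496 TPM, whose neighbouring ranges overlapped. Tfe3 at 9.22 ± 0.439 and Tfeb at 8.51 ± 0.510 TPM also overlapped, and Tsc1 lay below them at 6.97 ± 0.355 TPM. Rragd averaged 0.00685 TPM there, from 1 count in 1 library.

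At 2% oxygen this order was different. Ddit4 headed the control cells at 328 ± 20.4 TPM, over Sesn2 at 60.4 ± 4.50 and Sesn1 at 26.6 ± 0.751 TPM, with no overlap between these neighbours. Rptor at 15.0 ± 1.29 and Flcn at 13.7 ± 0.507 TPM overlapped, so Flcn, which had been above Rptor in every control library at 20% oxygen, was no longer distinct from it. Mtor at 11.0 ± 0.685 TPM stood clear of its neighbours, and Tfeb, Tfe3 and Tsc1 (6.91 ± 0.324, 6.23 ± 0.633 and 5.17 ± 0.578 TPM) overlapped in turn above Rragd at 0.498 ± 0.153 TPM. In MCT4-KO cells the order of control cells was kept except among close neighbours: at 20% oxygen Sesn2 (128 ± 9.38 TPM) was above Ddit4 (100.8 ± 9.64 TPM) in every library and Sesn1 above Mtor, and at 2% oxygen Flcn came before Rptor and Tfe3 before Tfeb, with overlapping ranges.

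**Figure D1:**
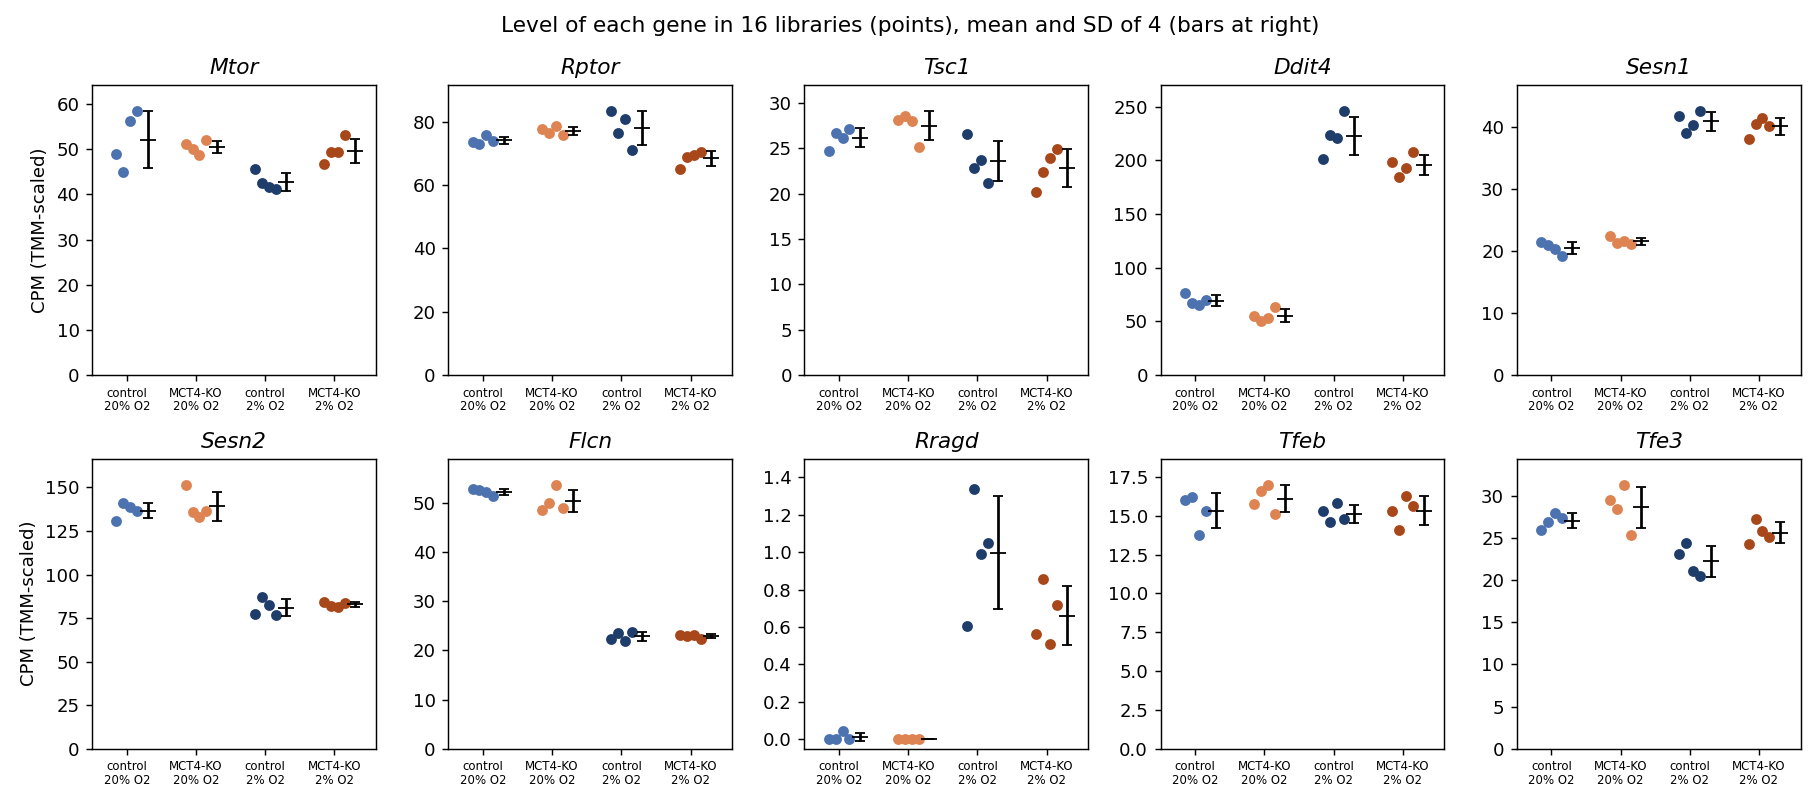
TMM-scaled CPM (vertical axes, each from 0 and with its own scale, apart from Rragd, whose axis starts just below 0) of the 10 genes in the 16 libraries, with points for libraries and bars at their right for the mean and SD of 4. Ddit4, Sesn1 and Rragd were higher and Sesn2 and Flcn lower in every library at 2% than in any at 20% oxygen, while Tfeb overlapped throughout.

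Of the 9 genes other than Rragd, Ddit4, Sesn1, Sesn2 and Flcn had the largest log2 changes with oxygen in both genotypes. Rragd, which entered the test only through its counts at 2% oxygen, is left out of these counts and described by its counts further on. In control cells 6 of the 9 were called, 2 higher (Ddit4, Sesn1) and 4 lower (Flcn, Sesn2, Mtor, Tfe3), beside 78.3% of all tested genes called (38.7% higher and 39.6% lower). In MCT4-KO cells 7 were called, the same 2 higher and Flcn, Sesn2, Tsc1, Rptor and Tfe3 lower, beside 76.4% of all genes (37.7% and 38.7%). Both counts are close to the share of all genes that changed with oxygen. Groups at the 2 oxygen levels did not overlap for 5 of the 9 in control and 6 in MCT4-KO cells, against 70.2% and 72.4% of all genes. The median log2 change of the 9 genes other than Rragd was -0.15 in control and -0.16 in MCT4-KO cells, against -0.017 and -0.014 over all tested genes. Scaled by library size in place of TMM, the median of all genes moved to -0.22 and -0.19, and 35.2% and 35.4% of called genes were higher, against 49.4% and 49.3% with TMM, so oxygen changes whose call or direction differs between the scalings are given below with both.

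Ddit4 encodes Redd1, a protein known to be induced by low oxygen that releases TSC2 from its inhibitor. Its level was 76.2, 66.9, 64.9 and 69.4 CPM in control replicates 1 to 4 at 20% oxygen and 202, 223, 220.4 and 246 CPM at 2%. In the knockout it was 54.8, 49.8, 53.3 and 63.4 CPM at 20% and 198, 185, 192 and 207 CPM at 2% oxygen. The lowest library at 2% oxygen held more than 2 times the highest at 20%. Ddit4 rose by 1.68 ± 0.067 on the log2 scale in control (edgeR adjusted p = 3.74e-15) and by 1.82 ± 0.068 in MCT4-KO cells (edgeR adjusted p = 1.61e-15), which are 3.21-fold and 3.54-fold in mean CPM. Of the tested genes 5.50% had a log2 change at least as high in control cells. The 150 bases from -250 to -101 of its RefSeq start (GRCm38.p6, chr10:59951871-59952020, minus strand; position -1 is the base just before the start) are shown because they hold the core letters ACGTG of the hypoxia response element, in capitals at -187 to -183:
Ddit4: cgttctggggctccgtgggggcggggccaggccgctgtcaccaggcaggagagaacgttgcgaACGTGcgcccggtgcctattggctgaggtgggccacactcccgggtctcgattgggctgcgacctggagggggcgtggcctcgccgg

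The sestrins went in opposite directions. Sesn1 encodes a leucine-binding inhibitor of the GATOR2 complex and is a textbook p53 target. It had 21.4, 20.9, 20.3 and 19.2 CPM in the control libraries at 20% oxygen and 41.7, 39.0, 40.3 and 42.5 CPM at 2%, and 22.3, 21.3, 21.5 and 21.1 against 38.1, 40.5, 41.4 and 40.2 CPM in MCT4-KO cells. Every library at 2% oxygen was above every library at 20%. It rose by 0.999 ± 0.044 (log2) in control and 0.89 ± 0.043 in MCT4-KO cells (edgeR adjusted p = 2.07e-14 and 1.29e-13). Sesn2, the leucine sensor of the family and a target of the stress factor Atf4, lay at 131, 141, 139 and 137 CPM in control libraries at 20% oxygen and at 151, 136, 133 and 136 CPM in MCT4-KO libraries. At 2% oxygen it lay at 77.4, 87.1, 82.7 and 76.9 CPM and at 84.1, 82.1, 81.5 and 83.9 CPM, below every library at 20%. It fell by 0.75 ± 0.044 in both genotypes (edgeR adjusted p = 2.31e-12 and 2.96e-12).

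The make-up of the sestrin messages differed between oxygen levels. Sesn1 made up 11.5% ± 0.671 of sestrin TPM in control and 11.9% ± 0.399 in MCT4-KO cells at 20% oxygen, and 30.3% ± 2.00 and 29.4% ± 1.02 at 2% (SD, n = 4). Sesn2 remained the larger part, with 88.2% ± 0.695 and 87.8% ± 0.462 at 20% and 68.7% ± 2.10 and 69.9% ± 1.01 at 2% oxygen. The third sestrin, Sesn3, stayed at or under 1.23% in every library.

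**Figure D2:**
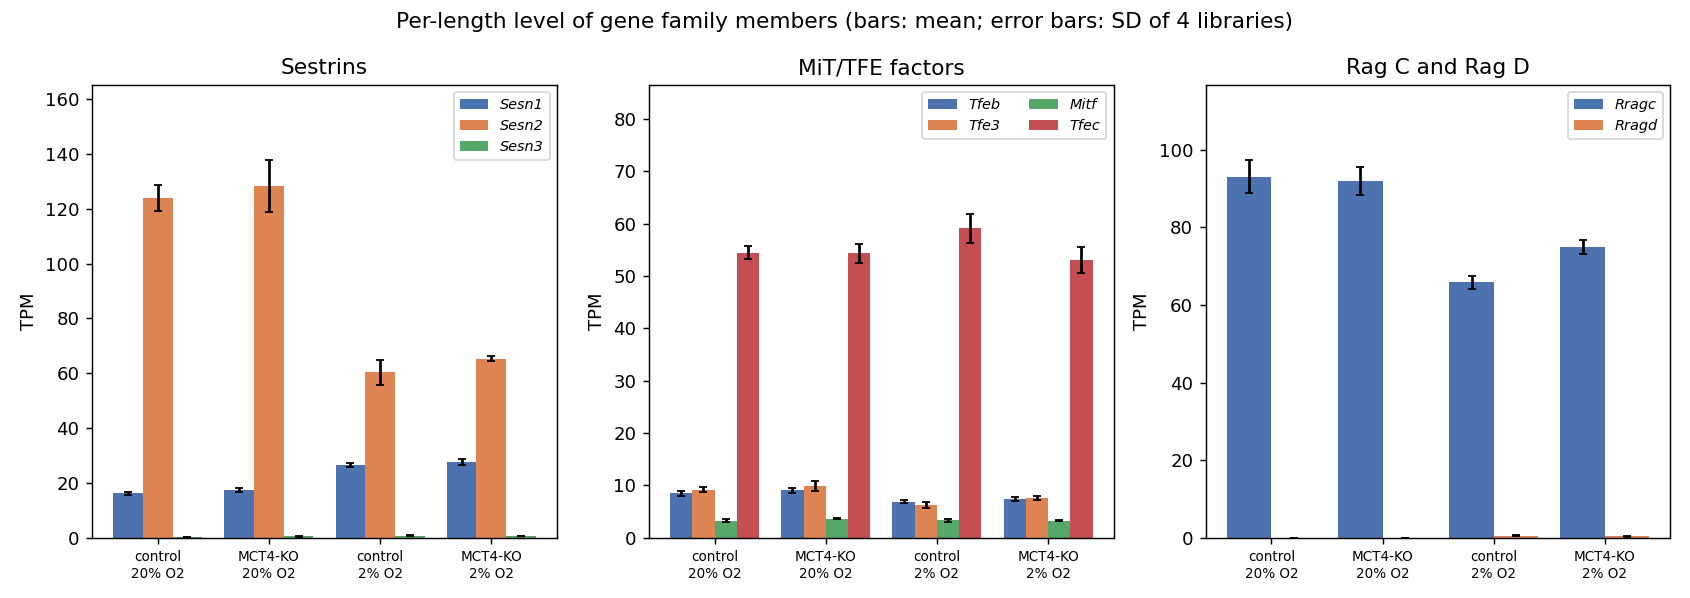
Mean TPM (vertical axes from 0, bars) with SD of 4 libraries (error bars) of the sestrins, the MiT/TFE factors and Rag C and D in the 4 groups. Within each group Sesn2 stood above Sesn1 and Tfec far above Tfeb and Tfe3, and Rragd is barely visible beside Rragc.

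The lysosomal arm showed the deepest fall and the only gene that came up from almost no counts. Flcn encodes folliculin, which activates RagC and RagD by GTP hydrolysis and so lets mTORC1 reach TFEB and TFE3. It held 53.0, 52.6, 52.2 and 51.5 CPM (control) and 48.7, 50.1, 53.7 and 49.1 CPM (MCT4-KO) at 20% oxygen. At 2% it held 22.3, 23.6, 21.9 and 23.7 CPM and 23.1, 23.0, 23.2 and 22.3 CPM. The groups at the 2 oxygen levels lay far apart, and within an oxygen level the genotypes overlapped. It fell by 1.19 ± 0.040 (log2) in control and 1.14 ± 0.040 in MCT4-KO cells (edgeR adjusted p = 2.52e-16 and 5.81e-16), a change of -56.3% and -54.5% in mean CPM.

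Rragd encodes RagD, a Rag GTPase whose transcription TFEB and TFE3 are known to drive. In control cells it had 0, 0, 1 and 0 counts in replicates 1 to 4 at 20% oxygen and 14, 31, 21 and 23 counts at 2%. In MCT4-KO cells it had 0 counts in all 4 libraries at 20% oxygen and 13, 20, 14 and 16 at 2%. The ratio of 2% to 20% oxygen in control cells was 100.1 in pooled CPM, with an exact 95% interval of 17.5 to 3999 that covers counting error only. In MCT4-KO cells the level at 2% was at least 22.7-fold higher, taking 3 counts over the group as the limit that a count of 0 allows (0.0288 CPM). No p-value is given for these ratios, since the 2% libraries decided that Rragd was tested. Its level at 2% oxygen was 0.996 ± 0.302 CPM (control) and 0.662 ± 0.157 CPM (MCT4-KO, SD, n = 4). It made up 0.747% ± 0.210 and 0.464% ± 0.101 of the TPM of Rragc and Rragd together, so Rragc, its close relative, supplied nearly all of that pair.

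The 3 genes of the kinase core and its main brake changed little. Mtor encodes the kinase and had 49.0, 45.0, 56.3 and 58.4 CPM in control libraries at 20% oxygen and 45.6, 42.4, 41.7 and 41.3 CPM at 2%. In MCT4-KO cells it had 51.2, 50.1, 48.8 and 52.0 CPM at 20% and 46.7, 49.4, 49.4 and 53.2 CPM at 2%. The control libraries overlapped by 1 library at each oxygen level, and the MCT4-KO libraries overlapped broadly. Mtor fell by 0.29 ± 0.064 (log2) in control cells (edgeR adjusted p = 4.36e-04). In MCT4-KO cells its change was -0.025 ± 0.063 (edgeR adjusted p = 0.728), and -0.20 with library-size scaling, where it passed (edgeR adjusted p = 0.00827).

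Rptor, the scaffold that presents substrates to the kinase, had 73.7, 73.1, 75.8 and 74.1 CPM (control) and 77.8, 76.6, 78.7 and 75.9 CPM (MCT4-KO) at 20% oxygen. At 2% oxygen it had 83.4, 76.6, 81.1 and 71.3 CPM (control) and 65.1, 69.0, 69.5 and 70.4 CPM (MCT4-KO). All 4 MCT4-KO libraries at 2% lay below all others, while control replicate 4 at 2% was the lowest of its group. Rptor fell by 0.17 ± 0.041 (log2) with low oxygen in MCT4-KO cells (edgeR adjusted p = 7.16e-04). In control cells its change was 0.074 ± 0.041 (edgeR adjusted p = 0.105). That value was 0.11 and passed without control replicate 4 at 2% oxygen (edgeR adjusted p = 0.00680), and was -0.13, in the other direction, with library-size scaling (edgeR adjusted p = 0.0101). The 130 bases before its RefSeq start (GRCm38.p6, chr11:119602775-119602904, plus strand) are shown as the only other window of the 10 genes with a motif that was searched for, ACGTG in capitals at -34 to -30:
Rptor: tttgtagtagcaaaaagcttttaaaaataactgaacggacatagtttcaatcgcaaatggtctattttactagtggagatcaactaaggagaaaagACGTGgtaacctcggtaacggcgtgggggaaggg

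Tsc1, the scaffold of the TSC complex, had 24.7, 26.7, 26.2 and 27.1 CPM (control) and 28.2, 28.6, 28.1 and 25.1 CPM (MCT4-KO) at 20% oxygen. At 2% oxygen it had 26.6, 22.8, 23.7 and 21.2 CPM (control) and 20.2, 22.3, 23.9 and 25.0 CPM (MCT4-KO). Replicate 1 of the control group at 2% oxygen lay among the controls at 20%, and the MCT4-KO groups did not overlap. Tsc1 fell by 0.26 ± 0.068 (log2) in MCT4-KO cells (edgeR adjusted p = 0.00144), and its change in control cells was -0.15 ± 0.069 (edgeR adjusted p = 0.0533). The control value passed without control replicate 1 at 20% oxygen (-0.18), without control replicate 1 at 2% (-0.21), and without MCT4-KO replicate 4 at 20% or replicate 1 or 4 at 2% oxygen (-0.15 each), as it did with library-size scaling (-0.35), with no count filter (-0.14) and in a fit of the compared groups alone (-0.16).

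Of the transcription factors at the end of the pathway, Tfeb had no called change in any comparison and Tfe3 small ones. Tfeb, the master activator of lysosomal genes, had 16.03, 16.2, 13.8 and 15.3 CPM (control) and 15.8, 16.6, 17.0 and 15.1 CPM (MCT4-KO) at 20% oxygen, and 15.3, 14.6, 15.8 and 14.8 and 15.3, 14.1, 16.3 and 15.6 CPM at 2%. All 4 groups overlapped. Its oxygen change was -0.023 (log2, 95% interval -0.15 to 0.10) in control and -0.071 (-0.20 to 0.054) in MCT4-KO cells, with edgeR adjusted p of 0.743 and 0.285, so a change beyond these bounds was not seen with TMM scaling. With library-size scaling the values were -0.23 and -0.25 and passed (edgeR adjusted p = 0.00231 and 9.13e-04), close to the shift of the median gene under that scaling.

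Tfe3, which shares its targets with Tfeb, had 26.0, 26.9, 28.0 and 27.4 CPM in control libraries at 20% oxygen and 23.1, 24.5, 21.1 and 20.5 CPM at 2%. In MCT4-KO cells it had 29.5, 28.4, 31.3 and 25.4 CPM at 20% and 24.3, 27.2, 25.9 and 25.2 CPM at 2%. The control groups did not overlap and the MCT4-KO groups did. It fell by 0.28 ± 0.064 (log2) in control cells (edgeR adjusted p = 4.88e-04) and by 0.16 ± 0.062 in MCT4-KO cells (edgeR adjusted p = 0.0242). The MCT4-KO call was lost without MCT4-KO replicate 1 (-0.15) or 3 (-0.11) at 20% oxygen, or replicate 1 (-0.14) or 4 (-0.15) at 2%. Of the 4 genes of the family 2 were higher and 1 lower, Tfe3, in control and 1 and 1 in MCT4-KO cells. With library-size scaling they were 1 and 2, and 0 and 2. These counts stand beside 78.3% (control) and 76.4% (MCT4-KO) of all tested genes called either way with TMM, so they mark nothing particular to the family. The most abundant message of this family was Tfec, a relative found in myeloid cells, with 72.2% ± 0.466 of the family's TPM in control cells at 20% and 78.2% ± 0.779 at 2% oxygen, and 70.6% ± 1.60 and 74.4% ± 0.764 in MCT4-KO cells. Tfeb and Tfe3 made up 11.3% ± 0.774 and 12.2% ± 0.440 in control cells at 20%, and 9.14% ± 0.395 and 8.25% ± 0.745 at 2% oxygen.

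**Figure D3:**
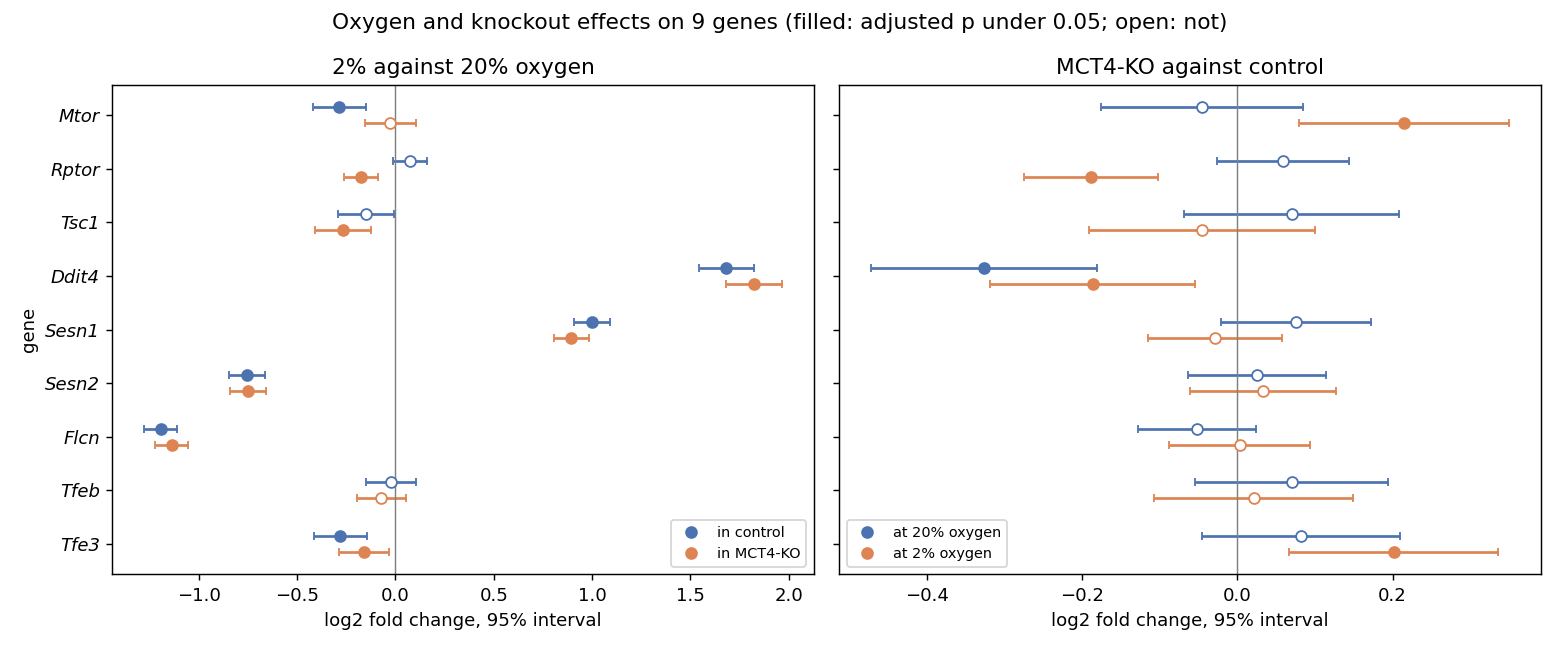
Log2 fold changes (horizontal axes) with 95% intervals from edgeR's quasi-likelihood fit for 9 genes, at left for 2% against 20% oxygen and at right for MCT4-KO against control, with filled points for adjusted p under 0.05. Rragd is left out because its counts at 20% oxygen were 0 or 1. Oxygen changes of Ddit4, Sesn1, Sesn2 and Flcn lie far from 0, while knockout changes stay within 0.33 of it; the right axis spans a smaller range than the left.

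MCT4 knockout changed 1 of the 10 genes at 20% oxygen, Ddit4, beside 9.76% of all tested genes called (4.96% higher and 4.8% lower). The 4 MCT4-KO libraries, at 49.8 to 63.4 CPM, lay below the 4 control libraries, at 64.9 to 76.2 CPM. Ddit4 fell by 0.33 ± 0.070 on the log2 scale (edgeR adjusted p = 0.00457), a change of -20.2% in mean CPM. Rptor was higher in all 4 MCT4-KO than in all 4 control libraries there without passing (0.059 ± 0.041, edgeR adjusted p = 0.426), beside 14.6% of all genes whose groups did not overlap. The other 7 genes with a fitted value had log2 changes of -0.053 to 0.082, and Rragd had 1 count in control and 0 in MCT4-KO libraries, too few for a comparison. The median of the 9 genes other than Rragd was 0.059, against -0.0051 over all genes.

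At 2% oxygen the knockout changed 4 of the 10, beside 38.4% of all tested genes (19.4% higher and 19.1% lower). Of the called genes 50.4% were higher with TMM and 63.1% with library-size scaling. Mtor and Tfe3 were higher and Rptor and Ddit4 lower in MCT4-KO cells, and the median of the 9 genes other than Rragd was 0.0029, against -0.0040 over all genes. Mtor rose by 0.21 ± 0.065 (log2, edgeR adjusted p = 0.0126), with MCT4-KO libraries at 46.7 to 53.2 CPM above the controls at 41.3 to 45.6 CPM. Rptor fell by 0.19 ± 0.041 (edgeR adjusted p = 0.00120), with MCT4-KO libraries at 65.1 to 70.4 CPM below the controls at 71.3 to 83.4 CPM. These are the only pair among the 10 with no overlap between the genotypes at 2%, against 37% of all genes. Without control replicate 4 at 2% oxygen, Mtor rose by 0.20 and Rptor fell by 0.23, and both still passed.

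The calls of Tfe3 and Ddit4 at 2% oxygen were weaker, and in both genes the genotypes overlapped. Tfe3 rose by 0.20 ± 0.064 (log2, edgeR adjusted p = 0.0178) and lost its call when control replicate 3 (0.18), control replicate 4 (0.16) or MCT4-KO replicate 2 (0.17) was left out. Ddit4 fell by 0.19 ± 0.063 (edgeR adjusted p = 0.0242), and lost its call when control replicate 4 (-0.13), MCT4-KO replicate 2 (-0.16) or MCT4-KO replicate 3 (-0.18) was left out, and with library-size scaling (-0.15). Leaving out control replicate 4 or MCT4-KO replicate 2 thus left 2 of the 10 genes called. Rragd had 89 counts over the control and 63 over the MCT4-KO libraries, a ratio of 0.658 in pooled CPM (exact 95% interval 0.469 to 0.918, counting error only). Over replicates that difference was not called (edgeR adjusted p = 0.112), and it passed without control replicate 1, the lowest control library (edgeR adjusted p = 0.0387). Sesn1, Sesn2, Flcn, Tsc1 and Tfeb had knockout changes of -0.046 to 0.033 with 95% intervals within -0.19 and 0.15.

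The dependence of the knockout effect on oxygen was tested as its value at 2% minus its value at 20%. It was called for 2 of the 10 genes, beside 22.9% of all tested genes (11.6% higher and 11.3% lower at 2%). For Rptor the difference was -0.25 ± 0.058 on the log2 scale (edgeR adjusted p = 0.00430), from 0.059 at 20% to -0.19 at 2% oxygen. For Mtor it was 0.26 ± 0.090 (edgeR adjusted p = 0.0425), from -0.046 to 0.21. The Mtor difference passed without control replicate 1 or 2 at 20% oxygen, control replicate 1 at 2% or MCT4-KO replicate 1 at 2%. Without any 1 of the other 12 libraries it was 0.20 to 0.27 and did not pass (edgeR adjusted p of 0.0504 to 0.0942), nor did it with limma-voom (0.25, adjusted p = 0.0544). For Ddit4 the difference was 0.14 (95% interval -0.056 to 0.34, edgeR adjusted p = 0.310), so its lower level in MCT4-KO cells was not shown to differ between oxygen levels. The other 6 genes with a fitted value had differences of -0.12 to 0.12, and none is given for Rragd.

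The wider pathway is described by lists of its genes, in which the 10 genes are included and which carry no test of their own. Their counts stand beside 38.7% of all tested genes called higher and 39.6% lower at 2% oxygen in control cells, and 37.7% and 38.7% in MCT4-KO cells. Of 12 subunits and assembly factors of the mTOR complexes, 3 were higher and 7 lower at 2% oxygen in control cells, and 3 and 6 in MCT4-KO cells (medians -0.20 and -0.12 on the log2 scale), which is near the 78.3% and 76.4% of all genes called either way. Deptor, which binds mTOR and inhibits it, rose by 2.06 ± 0.10 and 1.58 ± 0.097, and Telo2, needed to fold mTOR and its kin, fell by 0.91 ± 0.051 and 0.77 ± 0.050 (control and MCT4-KO). Deptor was also higher in MCT4-KO cells at 20% oxygen, by 0.51 ± 0.12 (edgeR adjusted p = 0.00812). Of the 5 genes of the TSC complex and Rheb, 1 was higher and 3 lower in control and 2 and 3 in MCT4-KO cells. Rheb, the GTPase that switches mTORC1 on, fell by 0.41 ± 0.050 and 0.45 ± 0.050, and its relative Rhebl1 by 1.30 ± 0.13 and 0.88 ± 0.12. With library-size scaling the counts were 2 higher and 9 lower of the 12 in each genotype, and 0 higher with 4 (control) or 3 (MCT4-KO) lower of the 5.

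Genes of the amino acid branch moved both ways. Of 9 tested genes for Rag GTPases, Ragulator and the lysosomal arginine sensor, Rragd was tested only through its counts at 2% oxygen. Of the other 8, 4 were higher and 3 lower at 2% oxygen in control and 4 and 2 in MCT4-KO cells. These stand beside 78.3% and 76.4% of all genes called either way. With library-size scaling and Rragd included, the counts of the 9 were 4 and 4, and 5 and 4. Lamtor2, a Ragulator subunit that anchors the Rags to the lysosome, rose by 1.23 ± 0.053 and 1.09 ± 0.053 (log2, control and MCT4-KO). Lamtor3, a subunit of the same complex, fell by 0.63 ± 0.036 and 0.54 ± 0.036. Of 12 genes of GATOR1, GATOR2 and KICSTOR, which pass amino acid signals to the Rags, 6 were higher and 5 lower in control and 5 and 5 in MCT4-KO cells, but 2 and 7, and 3 and 8, with library-size scaling. Kptn, a KICSTOR subunit, rose by 0.94 ± 0.067 and 0.85 ± 0.066. Of 7 amino acid sensors 5 were higher and 2 lower in each genotype, with either scaling: Bmt2, the sensor of S-adenosylmethionine also called SAMTOR, rose by 1.19 ± 0.042 and 0.94 ± 0.042, and Castor1, an arginine sensor, by 0.80 ± 0.089 and 1.03 ± 0.088. The leucyl-tRNA synthetase Lars fell by 1.16 ± 0.049 in control cells. Of the 3 genes of the folliculin complex 2 were lower in each genotype (3 with library-size scaling). Folliculin's partner Fnip2 fell with it, by 1.11 ± 0.081 and 0.58 ± 0.076, and was higher by 0.52 ± 0.085 in MCT4-KO than in control cells at 2% oxygen (edgeR adjusted p = 7.06e-05).

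Among 16 tested stress brakes on mTORC1, 6 were higher and 7 lower in control and 6 and 9 in MCT4-KO cells at 2% oxygen, beside 78.3% and 76.4% of all genes called, so Ddit4 and Sesn1 did not stand for the list (medians -0.074 and -0.20 on the log2 scale). Bnip3, a mitochondrial protein that also binds Rheb and is known to be induced by low oxygen, rose by 4.08 ± 0.19 and 4.58 ± 0.20, and was lower in MCT4-KO cells at 20% oxygen by 0.79 ± 0.19 (edgeR adjusted p = 0.0108), from 60.2 ± 18.1 CPM in control to 34.6 ± 12.2 CPM in MCT4-KO libraries (SD, n = 4). Trib3, an Atf4-induced inhibitor of Akt, fell by 3.10 ± 0.087 and 2.71 ± 0.085. Of 12 mTORC1 substrates and effectors 7 were higher and 4 lower in control and 5 and 4 in MCT4-KO cells (library-size scaling 5 and 4, and 3 and 6). Lpin1, a lipid phosphatase that mTORC1 keeps out of the nucleus, rose by 2.85 ± 0.052 and 2.58 ± 0.052, and Rps6kb1, the S6 kinase, fell by 0.82 ± 0.035 and 0.57 ± 0.034. Grb10, an adaptor that mTORC1 stabilizes to damp insulin signals, was higher in MCT4-KO cells at both oxygen levels, by 1.31 ± 0.13 at 20% and 0.83 ± 0.13 at 2% (edgeR adjusted p = 3.26e-06 and 6.74e-05). Its level was low, at 1.86 ± 0.170 CPM (SD, n = 4) in control libraries at 2% oxygen. Of 14 PI3K-Akt input genes 11 were higher and 1 lower in control and 9 and 1 in MCT4-KO cells, but 8 and 4, and 3 and 3, with library-size scaling. Irs2, an insulin receptor substrate, rose by 1.74 ± 0.074 and 1.64 ± 0.075.

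Lysosome and autophagy genes were mostly higher at 2% oxygen. Of 33 tested lysosome and autophagy genes that TFEB and TFE3 are known to bind, 25 were higher and 4 lower at 2% oxygen in control and 26 and 4 in MCT4-KO cells, beside 38.7% and 37.7% of all genes called higher (with library-size scaling 22 and 7, and 22 and 5). Their median log2 change was 0.55 in control and 0.50 in MCT4-KO cells, while Tfeb and Tfe3 themselves had the values given above. Naglu, a lysosomal heparan sulfate hydrolase, rose by 1.02 ± 0.040 and 1.15 ± 0.040. Sqstm1, the autophagy receptor p62, went the other way and fell by 1.15 ± 0.044 and 1.01 ± 0.044. It was also lower in MCT4-KO cells at 20% oxygen by 0.27 ± 0.043 (edgeR adjusted p = 5.05e-04), and 17.3% of its exon bases overlap those of Mrnip on the opposite strand. At 2% oxygen 5 of the 33 were higher and 11 lower in MCT4-KO than in control cells, but 10 and 7 with library-size scaling, so no direction is given for that comparison.

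Of 16 Atf4 targets, a list with both Sesn2 and Ddit4 in it, 2 were higher and 13 lower at 2% oxygen in each genotype with either scaling, beside 39.6% and 38.7% of all genes called lower, and the medians were -0.97 in control and -0.82 in MCT4-KO cells on the log2 scale. Sesn2 thus went with most of that list, as did Trib3 and Chac1, a glutathione-degrading enzyme that fell by 2.65 ± 0.069 in control cells. Ddit4 did not. It belonged to a list of 25 hypoxia-induced genes, of which 24 were higher and 1 lower at 2% oxygen in each genotype (23 and 1 in MCT4-KO cells with library-size scaling). In MCT4-KO cells 1 of these 25 was higher and 10 were lower at 20% oxygen, beside 4.96% and 4.8% of all genes. At 2% oxygen 0 were higher and 12 lower, beside 19.4% and 19.1%. Ddit4 was among the lower genes at both, and without it 9 and 11 of the other 24 were lower. Its call at 2% was lost with library-size scaling (-0.15). Of 19 tested p53 targets, which include Sesn1 and Sesn2, 10 were higher and 7 lower in control and 8 and 8 in MCT4-KO cells, but 4 and 9, and 5 and 9, with library-size scaling. The cell cycle inhibitor Cdkn1a rose by 1.26 ± 0.046 and 1.35 ± 0.046, while Bbc3, another p53 target, fell by 1.24 ± 0.058 in both genotypes. Of 15 tested FoxO targets, which include Sesn1, 10 were higher and 2 lower in control and 10 and 4 in MCT4-KO cells (library-size scaling 9 and 3, and 7 and 5). Both lists are to be read beside the 78.3% and 76.4% of all genes called either way. Pik3ip1, an inhibitor of PI3K, rose by 2.42 ± 0.050 and 1.48 ± 0.051 and was 0.75 ± 0.044 lower (log2) in the knockout at 2% oxygen (edgeR adjusted p = 4.36e-10).

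Knockout counts in the same lists stand beside 9.76% of all genes called at 20% and 38.4% at 2% oxygen. At 20% oxygen no gene of the TSC, Rag, GATOR, sensor, folliculin or MiT/TFE lists was called, and the mTOR subunits had 1 higher (Deptor), the stress brakes 2 lower (Ddit4 and Bnip3), the effectors 2 higher and the PI3K-Akt inputs 4 higher. At 2% oxygen the mTOR subunits had 5 higher and 3 lower, the Rag list 2 and 3, the GATOR list 4 and 2, the sensors 1 and 3, the brakes 2 and 4, the effectors 5 and 5 and the PI3K-Akt inputs 1 and 6 (2 and 3 with library-size scaling). The single called gene of the TSC list was Tbc1d7, a TSC subunit, which rose by 0.39 ± 0.060 (log2, edgeR adjusted p = 3.65e-05). Of the FoxO list 2 were higher and 3 lower at 20% and 1 and 8 at 2% oxygen, of the Atf4 list 2 and 2, and 7 and 4, and of the p53 list 1 and 0, and 4 and 2.

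**Figure D4:**
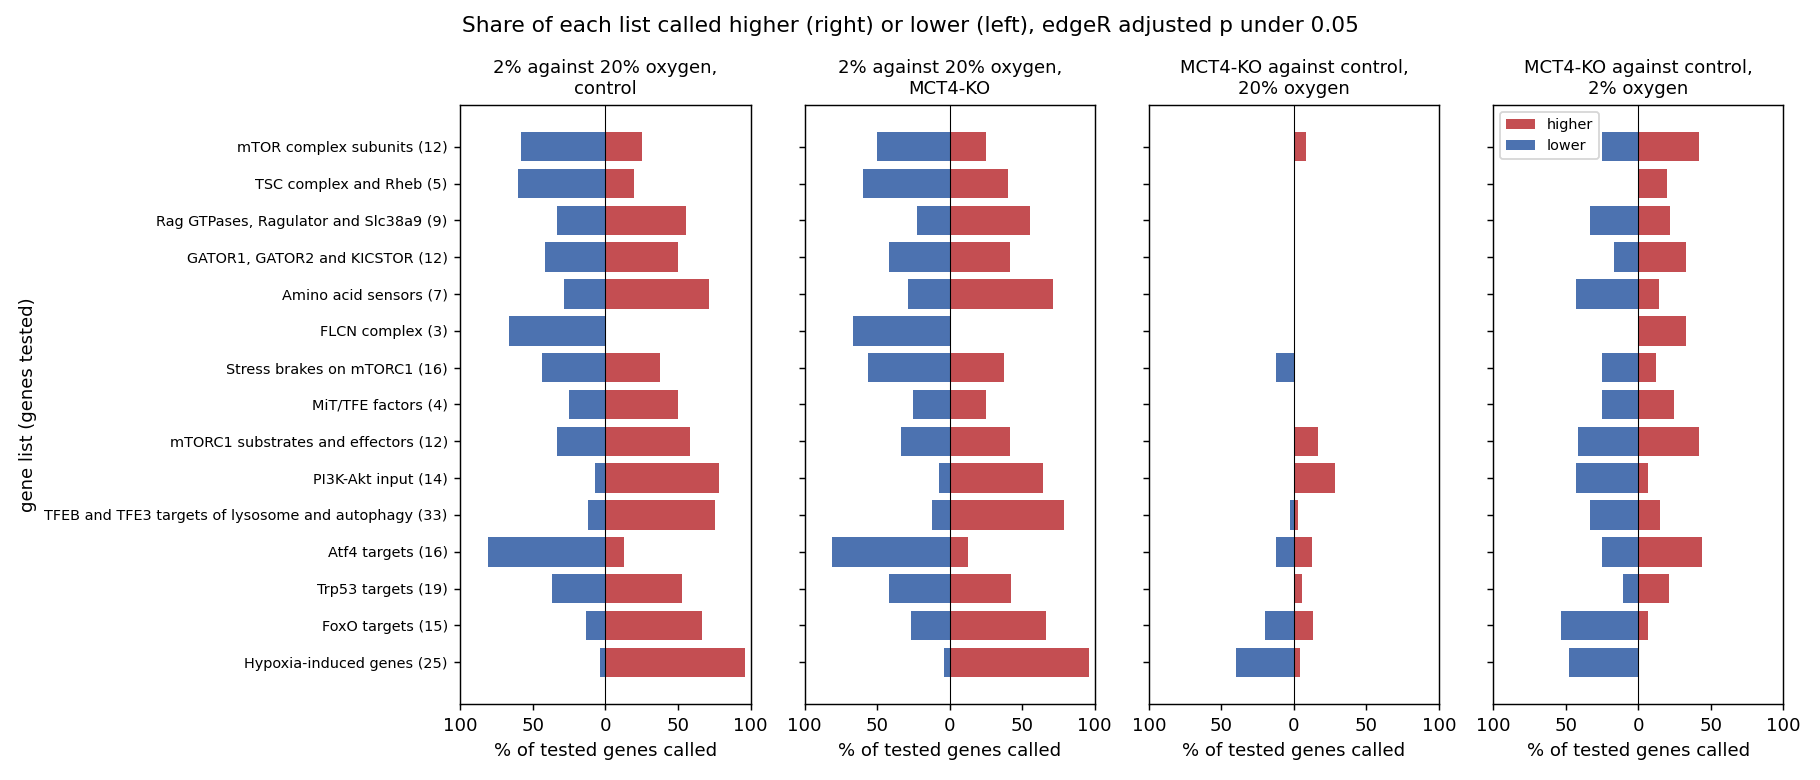
Percentage of the tested genes of each of 15 lists (number tested in brackets) called higher (to the right) or lower (to the left) in the 4 comparisons, by edgeR's adjusted p. Lysosome and autophagy genes lie mostly to the right and Atf4 targets mostly to the left at 2% oxygen. Bars in the knockout panels are mostly shorter and differ in direction between lists, with hypoxia-induced genes mostly to the left. In the oxygen panels the Rag list counts Rragd as higher, although it was tested only through its counts at 2% oxygen.

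In each gene's pattern over the 16 libraries, the nearest of 10866 expressed genes by Pearson correlation of log2 CPM shared mainly the split by oxygen. Ddit4 was closest to Map2k1 and Mief2 (r = 0.998 each), Sesn1 to Sh3bgrl (0.997), Sesn2 to Plagl2 (0.993), Flcn to Abcd3 (0.998) and Rragd to Ly6g (0.991). Rragd had almost no counts at the higher oxygen level, where the constant added before taking logs set its values. A high r of Rragd with genes that were higher at low oxygen was thus largely set in advance, and no likeness is read from it. The genes with little oxygen change had looser neighbours: Mtor was closest to Usp9x (r = 0.933), Tfe3 to Xkr8 (0.935), Tsc1 to Specc1l (0.889), Rptor to Fchsd2 (0.871) and Tfeb to Daxx (0.763). These are descriptions over libraries that share groups and scaling.

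The 10 genes have 14 RefSeq promoter windows, from 250 bases before to 50 after a start. They were searched on both strands for the hypoxia response core ACGTG, the E-box CACGTG, which contains that core, the CLEAR motif, which is that E-box with GT before and AC after it, and the amino acid response motif TGATGNAA. These stand in 19.6%, 7.15%, 0.326% and 3.97% of 32851 promoter windows of the same length. Only ACGTG was found, in the windows of Ddit4 and Rptor printed above. The window of Flcn, the gene with the deepest fall, and those of Sesn1, Sesn2 and Rragd held none of the 4 motifs, which says only that these letters are not in these windows.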

How the data were processed

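Messenger RNA of 16 libraries (4 groups of 4) was measured by RNA sequencing of poly(A)-selected RNA, per the labels' protocols. The authors deposited estimated counts per Ensembl gene in 1 table. The submitters' processing notes name HISAT2, RSEM and mm10. Versions, annotation and strand setting were not given in the sources used here, so reads of overlapping genes on either strand cannot be told apart. Of the values 10.1% were not whole (differing from the nearest whole number at all), and all were rounded before testing. Totals were 21192179 to 28871459 per library, and intervals and limits for Rragd cover counting error only.

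Symbols, exon lengths and overlaps came from GENCODE vM21 (GRCm38), which named 53706 of 53801 identifiers. The other 95 took 0.0103% of counts. Among the 10 genes the only exon overlap was of Rptor with the antisense gene Rptoros, which had 1 count in all. Of the listed genes named, Bnip3, Rhebl1 and Sqstm1 share 22.3%, 18.0% and 17.3% of their exon bases with a neighbour. Prtn3, Rragc, Cdkn1a, Tsc2 and Atf5 share 9.18%, 7.90%, 7.68%, 7.20% and 4.11%, and Deptor, Irs2, Pik3ip1 and Rps6kb1 under 4%. The neighbours of Atf5 (Nup62), Prtn3 (Plppr3), Tsc2 (Pkd1) and Sqstm1 (Mrnip) had 68369, 31010, 14099 and 3960 counts in all. Those of Bnip3 (Gm45507) and Rhebl1 (Dhh) had 20.6 and 1. Promoter windows came from RefSeq (GRCm38.p6), with all 10 genes matched. TPM was computed over merged exons and is not TMM-scaled, so it is used to compare genes within a group.

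Genes were kept with filterByExpr of edgeR 4.0.16 in R 4.3.3 and scaled by TMM (factors 0.912 to 1.08). All 16 libraries entered 1 negative binomial fit with a mean for each group, which left 12 degrees of freedom for the spread (biological coefficient of variation 4.61%). Tests were edgeR's quasi-likelihood F-tests, with Benjamini-Hochberg adjustment over 13774 genes per comparison and calls at an adjusted p under 0.05. Knockout was compared with control within an oxygen level, 2% with 20% oxygen within a genotype, and the knockout effects with each other. The fit was checked on simulated counts. Alternatives were DESeq2 1.42.0 size factors, library-size scaling, no count filter, 1 CPM in at least 8 libraries, the DESeq2 Wald test, limma-voom (limma 3.58.1), the compared groups alone, a block for the replicate number and leaving out each library.

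The 10 genes, the gene lists and the comparisons were chosen with earlier results of these data known. The text names all 10 genes. From each list it names some of the called genes that the rule takes (up to 3 per list and comparison with the largest change and at least 1 CPM on average), with their values in the other comparisons. Vegfa is named besides, as the lower gene of the hypoxia-induced list. It gives the nearest gene or genes in pattern of the 3 that the rule takes for each member.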

Additional observations from a re-analysis of the deposited data

Results flagged for a closer look

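The knockout effect differed between oxygen levels, by edgeR's test of the difference itself (the effect at 2% minus that at 20% oxygen, log2 scale, adjusted p under 0.05 over all genes), for 2 of the 10 genes, Mtor (0.26) and Rptor (-0.25), beside 22.9% of all tested genes. The same test passed for the following other genes named in the text or taken by its naming rule. In the mTOR, TSC and Rag groups the differences were -0.48 for Deptor, 0.36 for Tbc1d7 (a TSC complex subunit), 0.34 for Rraga and 0.14 for Rragc. Among sensors and brakes they were -0.88 for Sesn3, -0.25 for Bmt2, 0.38 for Lars, 0.53 for Fnip2 and 0.40 for Trib3. Among factors, effectors and input genes they were -0.21 for Tfec, -0.27 for Lpin1, 0.25 for Rps6kb1 and -0.18 for Pik3cd. Among targets they were 0.47 for Chac1, -0.24 for Atf5, -0.31 for Trp53inp1 and -0.94 for Pik3ip1. The differences of Atf5 and Rragc did not pass without 9 and 10 of the libraries, and that of Deptor without 2, where their values ran from -0.25 to -0.19, from 0.12 to 0.14 and from -0.44 to -0.35. Atf5 also did not pass with library-size scaling (-0.21) or the replicate block (-0.24), nor Rragc with no count filter or the replicate block (0.14 each). The Mtor difference did not pass without any 1 of 12 libraries (0.20 to 0.27) or with limma-voom (0.25).

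Over 42 genes, 166 groups of 4 libraries were examined, and in 6 of them 1 library lay far from the other 3 (most of the range was the gap to its nearest neighbour), where chance gives about 1 in 20 groups. Tsc1 was lowest in MCT4-KO replicate 4 at 20% oxygen (25.1 CPM), Tsc2 in control replicate 4 at 2% (57.9 CPM) and Lamtor2 in MCT4-KO replicate 3 at 2% (92.9 CPM). Sesn3 (6.22 CPM) and Mitf (8.90 CPM) were highest in control replicate 1 at 2%, and Chac1 (48.4 CPM) in control replicate 1 at 20% oxygen.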

How the results depend on the processing

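With the alternatives run, the oxygen calls of Ddit4, Sesn1, Sesn2 and Flcn kept their direction and passed in both genotypes, as did the Ddit4 fall with knockout at 20% oxygen (-0.40 to -0.28 over left-out libraries). Rragd gave no value with the filter of 1 CPM in 8 libraries. Library-size scaling turned Rptor in control cells with oxygen (-0.13), Sesn1 with knockout at 2% oxygen (0.012), and Tsc2 (-0.073) and Tbc1d7 (-0.011) with oxygen in MCT4-KO cells, and the 1 CPM filter turned Flcn with knockout at 2% (-0.0030). The number of the 10 genes called was 2 to 5 with knockout at 2% oxygen and 1 to 2 for the difference between knockout effects over left-out libraries, and 1 with limma-voom for the latter.

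Uncalled values that changed sign over left-out libraries were Mtor with knockout at 20% (-0.11 to 0.015) and with oxygen in MCT4-KO cells (-0.059 to 0.0023), Sesn2 with knockout at 20% (-0.017 to 0.047) and its difference (-0.016 to 0.050), Tfeb with oxygen in control cells (-0.068 to 0.0054), and with knockout at 2% Tsc1 (-0.091 to 0.017), Flcn (-0.015 to 0.022) and Tfeb (-0.012 to 0.057). The causes were not tested.

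Same-numbered libraries did not deviate together (r of -0.064 to 0.115 over 24 pairs, 1 above 0.1). The best match had the same number in 12 of 48 comparisons. No pairing by number was thus seen, but this cannot show that a number does not mark a shared culture or day. With the replicate number as a block, 1059, 4984, 10706, 10418 and 2781 genes were called for the knockout at 20% and 2%, oxygen in control and MCT4-KO cells and the difference, against 1344, 5295, 10790, 10520 and 3155 without the replicate block.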
